A study of Mus musculus with 106 samples.

Results

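Liver from mice kept at 10 °C was compared with liver from mice kept at 22 °C across all genes, in 6 of the 106 samples of the series. The members were the 3 cold-exposed (CE) and 3 room-temperature (RT) liver samples, found by their labelled tissue and treatment. All were wild type male mice labelled C57BL/6 (C57BL/6J in the study's methods) and week 11 of age, on chow, 2 to a cage without nesting material. Mice of the cold group were adapted stepwise, with 5 days at each of 18 °C and 14 °C, before 2 weeks at 10 °C, and controls stayed at 22 °C. Each sequenced library pooled the RNA of 2 animals, so 6 mice per group gave 3 libraries, and differences between single animals are averaged within a library. For values side by side, liver of mice kept at 34 °C for 4 weeks (warm-exposed, 3 libraries) and its own 22 °C controls (RT, 3 libraries), both wild type C57BL/6J and labelled 12 weeks of age, came from a second experiment with another supplier, library kit and sequencer, and brown fat (BAT) of the 10 °C experiment, week 11 and wild type as well, supplied 3 libraries per temperature. The labels name no agent, transgene or deletion for any of these groups.

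The liver feeds heat-producing organs: hepatocytes release glucose, ketone bodies and triglyceride-rich lipoproteins, clear lipoprotein remnants from blood and turn cholesterol into bile acids. Hepatocytes also make most plasma proteins, which pass through the endoplasmic reticulum (ER), where chaperones fold them and where a shortage of folding capacity induces the chaperone genes (the unfolded protein response). Many liver genes follow the circadian clock, a loop in which the activators Arntl, Clock and Npas2 drive repressors such as Nr1d1 and Nr1d2 and output factors such as Dbp.

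The 6 libraries held 16243271 to 22164263 counts, with 15109 to 15712 genes detected of the 21647 in the table. Levels are given as CPM, counts scaled to a common library size with TMM, a normalisation on the bulk of genes, and differences as log2 fold changes of 10 °C over 22 °C. Pairs of libraries correlated across genes with Pearson's r of 0.980 to 0.994 on log2 CPM, and no 2 libraries were identical. All libraries carried the defining hepatocyte transcripts: Alb, which encodes albumin, was at 66252, 69062 and 65068 CPM at 10 °C and 46514, 49406 and 51230.1 CPM at 22 °C.

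The libraries were not alike in transcripts of other cell types. Ucp1, the uncoupling protein of brown adipocytes, had 16, 245 and 25 reads in replicates 1 to 3 at 10 °C and 21, 21 and 1313 reads at 22 °C. Adipoq, an adipocyte hormone, had 5, 60 and 7 reads at 10 °C against 6, 9 and 281 reads at 22 °C, and Acta1, skeletal muscle actin, had 5, 60 and 8 reads against 8, 6 and 329 reads. Replicate 3 at 22 °C was thus the highest and replicate 2 at 10 °C the second highest for fat and muscle transcripts alike. The level of Ucp1 in these libraries was 1.32% and 0.237% of its mean in brown fat at 22 °C. Over whole marker lists, 14 of 14 adipocyte and 18 of 20 skeletal muscle markers were highest in replicate 3 at 22 °C, with summed levels of 69.2 to 128 CPM at 10 °C and 62.2 to 325 CPM at 22 °C for adipocyte markers and of 137 to 178 CPM and 126 to 372 CPM for muscle markers. The summed level of 15 brown adipocyte markers, which include Elovl3, a gene that hepatocytes express too, was 669 to 922 CPM at 10 °C and 935 to 1254 CPM at 22 °C. Most of the sum in every library was Elovl3, at 765, 872 and 643 CPM at 10 °C and 1008, 901 and 1079 CPM at 22 °C. These ranges therefore do not measure brown fat RNA. Replicate 1 at 22 °C stood apart in another way: 15 of 15 markers of sinusoidal endothelium and 15 of 17 of Kupffer cells were lowest there, with sums of 500.4 CPM and 502 CPM against 774 to 899 CPM and 733 to 882 CPM in the other 5 libraries. In bulk tissue, fewer cells of a type and less RNA per cell cannot be told apart. Of 14 pancreas markers, 9 were at 0 in all libraries, Cpa1 among them.

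**Figure D1:**
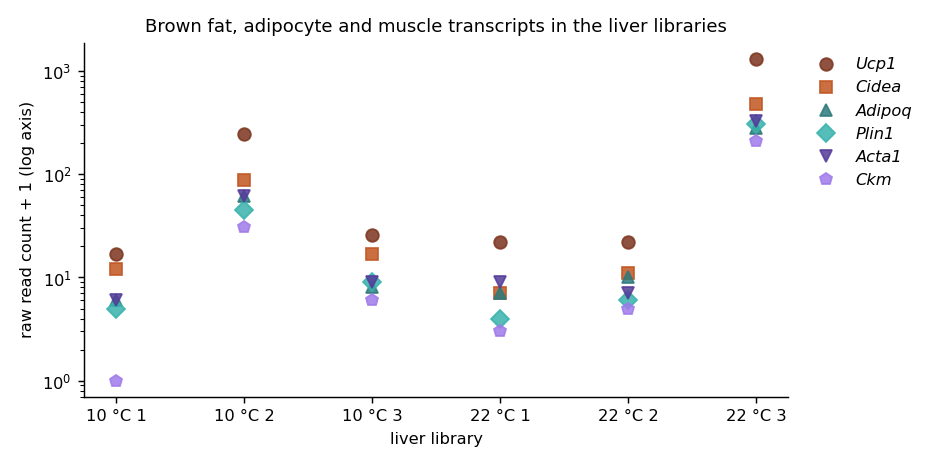
Raw read counts plus 1 (log axis) of transcripts of brown fat (Ucp1, Cidea), adipocytes (Adipoq, Plin1) and skeletal muscle (Acta1, Ckm) in each of the 6 liver libraries (x axis: temperature and replicate). The 22 °C replicate 3 library is highest for every one of them, with 1313 Ucp1 reads, and the 10 °C replicate 2 library is second, with 245.

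The first question was which liver genes differ between 10 °C and 22 °C. Of 12026 genes tested with edgeR's quasi-likelihood test, 395 (3.28%) passed the limits of the study, with p no larger than 0.05 before adjustment and a change of more than 1.5-fold, and are named called here. Each library is a pool of mice, so p-values measure the spread among pools. Of the 395 genes, 89 (0.74% of genes tested) were higher and 306 (2.54%) lower at 10 °C. Scaling by library size alone in place of TMM gave 55 higher and 399 lower. No gene passed a Benjamini-Hochberg adjusted p of 0.05 with this test, where 2233 (18.6%) had an unadjusted p of at most 0.05, 8% of all genes higher and 10.6% lower, while edgeR's exact test gave 455 genes and DESeq2 518 genes past that adjusted limit. The 3 libraries of each group did not overlap for 327 of the 395 called genes, against 24.1% of all genes tested. Single libraries moved these counts: without replicate 3 at 22 °C, 629 genes were called and 538 passed the adjusted p, and without replicate 1 at 22 °C, 277 were called (51 higher, 226 lower). In each of the 6 fits that left out 1 library, 128 of the 395 genes (19 higher, 109 lower) were called in the same direction.

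Genes of protein folding in the ER were among those higher at 10 °C. Of 27 tested genes of the integrated stress and unfolded protein response, 3 were called higher (11.1%, against 0.74% of all genes) and 1 lower (3.7%, against 2.54%), with a median log2 fold change of 0.14 against 0.01 over all genes tested. Hspa5, the main ER chaperone (BiP), was at 1851, 1203 and 1592 CPM at 10 °C and 971, 1015 and 802 CPM at 22 °C, a log2 fold change of 0.74 (SE 0.16, adjusted p = 0.0954). Its gene lies at chr2:34771970-34777547 on mm10 in the GENCODE annotation. The lowest cold library, replicate 2, lay above all controls, and the groups did not overlap. Creld2, an ER-resident protein induced with the chaperones, was at 125, 50.6 and 112 CPM at 10 °C and 47.4, 53.3 and 33.3 CPM at 22 °C, a log2 fold change of 1.102 (SE 0.30, adjusted p = 0.129). Replicates 1 and 3 at 10 °C were far above the controls, whereas replicate 2 lay inside the control range. Manf, a secreted ER stress factor, was at 166, 98.7 and 139 CPM at 10 °C and 87.5, 96.9 and 70.9 CPM at 22 °C (log2 fold change 0.66, SE 0.18, adjusted p = 0.129). It lost its call without replicate 1 at 10 °C or without replicate 3 at 22 °C. Derl3, a component of the degradation of misfolded ER proteins that was chosen after its values were seen, was at 8.96, 2.29 and 14.3 CPM at 10 °C and 1.87, 4.76 and 1.13 CPM at 22 °C (log2 fold change 1.74, SE 0.64, adjusted p = 0.201). Again replicate 2 at 10 °C was the low one of its group, at the level of the controls, and the call was lost without replicate 3 at 10 °C, replicate 1 at 22 °C or replicate 3 at 22 °C. That cold library was 1 of the 2 with fat and muscle reads, whose part in this spread was not tested.

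The member of the same list that was called lower was Asns, asparagine synthetase, a target of the amino acid arm of the stress response. It was at 3.19, 3.61 and 4.21 CPM at 10 °C and 7.89, 7.23 and 7.005 CPM at 22 °C, a log2 fold change of -0.997 (SE 0.15, adjusted p = 0.0941), with no overlap. Atf4, the transcription factor of that arm, had a log2 fold change of 0.34 (SE 0.10), below the fold limit.

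The promoters of these genes are shown because several ER members hold the same rare element. The ER stress element, spelled CCAAT, then 9 bases of any kind, then CCACG and searched on both strands, was held by 39 of 32851 RefSeq promoters of 300 bases (0.119%) and by 6 of the 25 tested members of the stress list that had a promoter in the table. Stretches around the match upstream of the start site as RefSeq gives it, on GRCm38.p6, are given 5′ to 3′ on the gene's strand with the element in capitals. In Creld2 and Derl3 the element reads on the opposite strand. The Asns stretch shows instead TGATGNAA, a core of the amino acid response element found in 3.97% of promoters. Of the 6 list members with the ER stress element, Hspa5 and Creld2 were called, and Hsp90b1, Dnajc3, Calr and Syvn1 were not. Derl3 is not a member of the list. No promoter of Manf was at hand, and Nucb2 had no match. A match describes letters only.
Hspa5, chr2:34772005-34772063, plus strand: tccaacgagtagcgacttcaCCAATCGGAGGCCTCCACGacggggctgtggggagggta
Creld2, chr15:88819500-88819558, plus strand: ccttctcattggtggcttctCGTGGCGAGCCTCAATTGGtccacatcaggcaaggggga
Derl3, chr10:75893222-75893280, plus strand: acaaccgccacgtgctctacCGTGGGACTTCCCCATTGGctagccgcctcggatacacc
Asns, chr6:7693210-7693252, minus strand: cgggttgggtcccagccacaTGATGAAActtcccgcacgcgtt

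Clock genes moved in both directions. Of 19 tested members of the clock list, 2 were called higher and 2 lower (10.5% each, against 0.74% and 2.54% of all genes), and 4 higher and 7 lower had an unadjusted p of at most 0.05, with a median log2 fold change of -0.25. Dbp, a clock output factor, was at 2.15, 5.62 and 9.72 CPM at 10 °C and 0.964, 2.05 and 1.07 CPM at 22 °C, the largest called rise of all genes (log2 fold change 2.11, SE 0.52, adjusted p = 0.119). The groups did not overlap, but came close at 2.15 and 2.05 CPM, and levels differed several-fold among the 3 cold libraries. Nr1d2 (REV-ERB beta), a repressor of the loop, was at 56.97, 45.1 and 59.2 CPM at 10 °C and 34.9, 38.1 and 26.2 CPM at 22 °C (log2 fold change 0.70, SE 0.15, adjusted p = 0.0947). Its groups did not overlap, but the fold fell below the limit without replicate 3 at 22 °C. The activator Npas2 was lower, at 6.45, 5.85 and 4.304 CPM against 13.4, 8.13 and 9.44 CPM (log2 fold change -0.91, SE 0.21, adjusted p = 0.117). Usp2, a rhythmic deubiquitinase, was also lower, at 1.41, 3.16 and 2.41 CPM against 6.21, 3.49 and 4.096 CPM (log2 fold change -0.98, SE 0.31, adjusted p = 0.159). Every cold library lay below every control for both. The activator Arntl was at 41.01, 47.4 and 30.3 CPM against 60.4, 47.8 and 52.3 CPM, without overlap but within the fold limit (log2 fold change -0.44, SE 0.15). Nr1d1 (REV-ERB alpha) spanned 19.6 to 35.7 CPM at 10 °C and 4.87 to 25.2 CPM at 22 °C and did not pass (log2 fold change 0.86, SE 0.44). In the liver libraries of the 34 °C experiment, Dbp was at 124 to 214 CPM and Arntl at 0.53 to 2.93 CPM. The study's methods give no time of day for tissue collection, and the part of that time in these values was not tested.

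**Figure D2:**
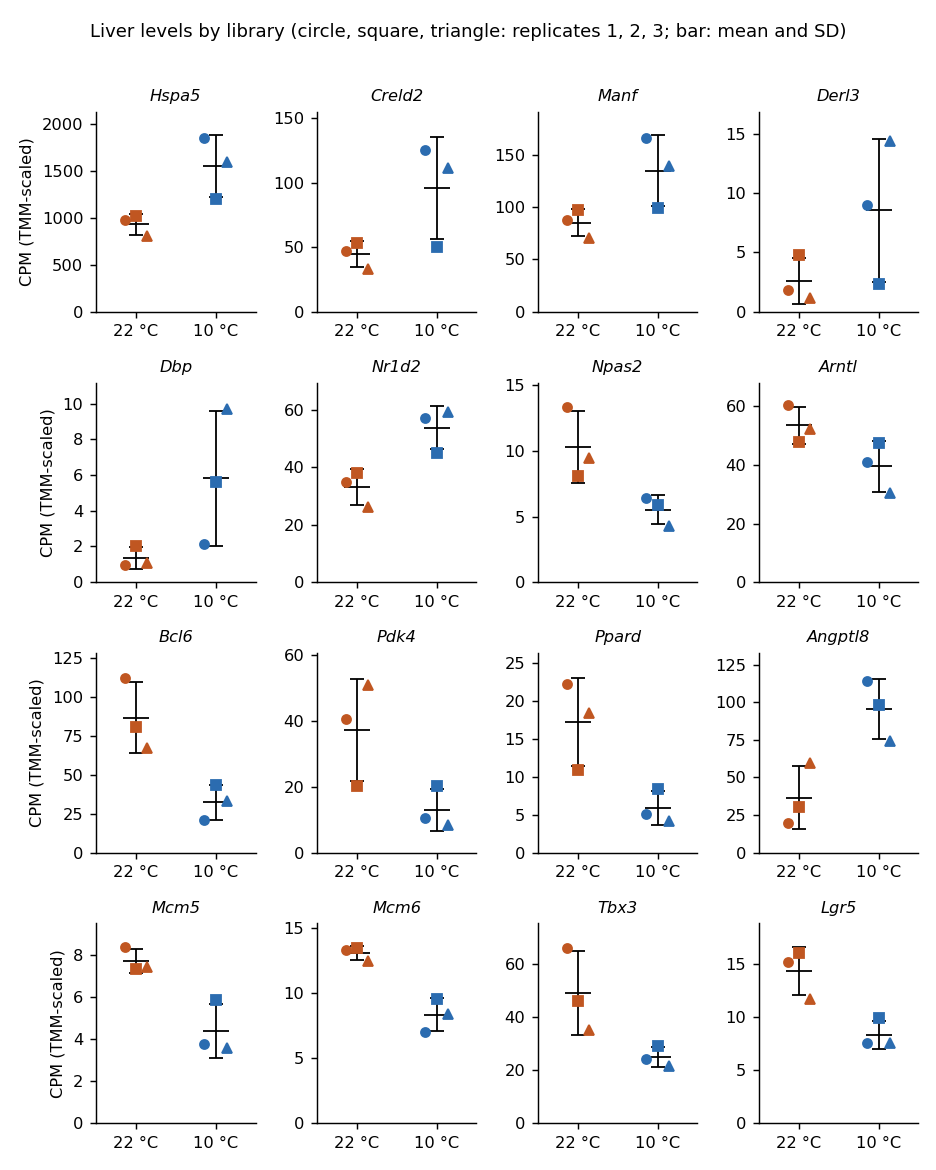
Levels (y axes, TMM-scaled CPM from 0) of 16 genes in the liver libraries at 22 °C (orange) and 10 °C (blue), with each replicate as its own symbol and the mean and SD as bars. Hspa5, Dbp, Nr1d2 and Angptl8 sit higher and Npas2, Bcl6, Ppard, Mcm5, Mcm6, Tbx3 and Lgr5 lower at 10 °C without overlap, and replicate 2 at 10 °C lies within the controls' range for Creld2 and Derl3.

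The following 6 genes, all called lower, come from several of the lists and were not tested as a group. Pdk4, the kinase that shuts pyruvate out of oxidation in fasting, was at 10.5, 20.2 and 8.28 CPM at 10 °C and 40.6, 20.2 and 50.9 CPM at 22 °C (log2 fold change -1.53, SE 0.37, adjusted p = 0.119). Replicate 2 of each group met at nearly the same level. Ppard, the nuclear receptor PPAR-delta, was at 5.03, 8.38 and 4.21 CPM and 22.2, 10.9 and 18.3 CPM (log2 fold change -1.56, SE 0.30, adjusted p = 0.0941). Ppargc1b, a coactivator of mitochondrial and lipid genes, was at 6.08, 5.68 and 4.91 CPM and 10.6, 11.1 and 8.79 CPM (log2 fold change -0.88, SE 0.14, adjusted p = 0.0941). Both were below every control in every cold library. Bcl6, a repressor of fatty acid oxidation genes and a growth hormone target, was at 20.8, 43.4 and 32.8 CPM and 112, 80.8 and 67.1 CPM (log2 fold change -1.42, SE 0.25, adjusted p = 0.0941), also without overlap. Foxo1, the fasting transcription factor of insulin signalling, was at 21.98, 23.6 and 22.6 CPM and 41.1, 34.1 and 29.6 CPM (log2 fold change -0.62, SE 0.12, adjusted p = 0.0941) and lost its call without replicate 1 at 22 °C. Irs2, an adaptor of the insulin receptor, was at 49.3, 77.2 and 43.04 CPM and 121, 79.7 and 69.9 CPM, with overlap, and its call was lost without replicate 1 or 3 at 10 °C or replicate 1 at 22 °C (log2 fold change -0.68, SE 0.24, adjusted p = 0.195).

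Of 43 tested genes of PPAR-alpha and fatty acid oxidation, 3 were called lower (6.98%, against 2.54% of all genes) and none higher (median -0.049), namely Pdk4 and the omega-hydroxylases Cyp4a31 and Cyp4a32, near-identical neighbours whose reads may be split between them. Cyp4a31 lost its call without replicate 1 at 10 °C or replicate 1 at 22 °C. None of 6 ketone body genes, 30 lipogenic genes, 33 genes of amino acid breakdown and the urea cycle or 38 nuclear-encoded respiratory chain genes was called. Of all genes 3.28% were called, a share at which lists of this size would hold few calls. The medians of the 4 lists were 0.034, -0.018, 0.0054 and 0.03. At an unadjusted p of at most 0.05 by edgeR's quasi-likelihood test, they held 2, 7, 6 and 0 genes. These were 33.3%, 23.3%, 18.2% and 0% of their members, against 18.6% of all genes. Of 29 genes of gluconeogenesis and glycogen, Foxo1 and Irs2 were the 2 called, both lower (6.9%, against 2.54% of all genes). Pck1, the committing enzyme of gluconeogenesis, was at 2239, 2423 and 1865 CPM at 10 °C and 3400.3, 3045 and 2513 CPM at 22 °C, without overlap and within the fold limit (log2 fold change -0.46, SE 0.14).

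Lipid uptake and sterol genes gave 3 calls. Of 37 tested genes of lipoproteins and lipid uptake, 1 was called higher (2.7%, against 0.74% of all genes). Of 25 tested sterol genes, 1 was called higher and 1 lower (4% each, against 0.74% and 2.54%). Angptl8, a fed-state hormone that restrains lipoprotein lipase in muscle, was at 114, 98.4 and 74.2 CPM at 10 °C and 19.5, 30.2 and 59.7 CPM at 22 °C (log2 fold change 1.39, SE 0.34, adjusted p = 0.119). All cold libraries were above all controls, and replicate 3 was the nearest to the other group on both sides. Insig1, which holds SREBP in the ER and is itself induced by SREBP, was at 378, 418 and 478 CPM and 243, 287 and 286 CPM (log2 fold change 0.64, SE 0.11, adjusted p = 0.0941). Dhcr7, the last enzyme of cholesterol synthesis, was at 49.6, 70.8 and 45.1 CPM and 102, 91.7 and 72.3 CPM in the opposite direction (log2 fold change -0.69, SE 0.18, adjusted p = 0.121), and both calls were lost without replicate 3 at 10 °C or replicate 1 at 22 °C. Of 28 tested bile acid genes none was called, and 9 higher and 5 lower had an unadjusted p of at most 0.05 (50%, against 18.6% of all genes). Cyp7a1, the rate-limiting enzyme of bile acid synthesis, was at 94.4, 168 and 115 CPM at 10 °C and 224, 179 and 147 CPM at 22 °C, with overlap (log2 fold change -0.55, SE 0.21).

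Genes of DNA replication and cell division had the lowest median of all pathway lists, -0.59 over 28 tested genes, of which 10 were called lower (35.7%, against 2.54% of all genes) and 1 higher (3.57%, against 0.74%). The replication helicase subunit Mcm6 was at 6.999, 9.52 and 8.38 CPM at 10 °C and 13.3, 13.4 and 12.5 CPM at 22 °C (log2 fold change -0.65, SE 0.13, adjusted p = 0.0941), a call lost without replicate 1 at 10 °C. Its partner Mcm5 was at 3.74, 5.85 and 3.56 CPM and 8.38, 7.35 and 7.42 CPM (log2 fold change -0.82, SE 0.20, adjusted p = 0.119). The groups did not overlap for either, nor for Mcm2 and Mcm3, with log2 fold changes of -0.64 (SE 0.17) and -0.59 (SE 0.15). Cdkn1a, the p21 inhibitor of the cell cycle, was lower as well (2.46, 3.73 and 2.22 CPM against 4.88, 6.26 and 6.17 CPM, log2 fold change -1.05, SE 0.22, adjusted p = 0.0958). The other 5 called lower were Aurka, Foxm1, Rrm2, Cdk1 and Cdc20, named after their values were seen. Cdk1, the mitotic kinase, was at 2.15, 1.78 and 1.62 CPM at 10 °C and 6.27, 2.95 and 1.8995 CPM at 22 °C, where replicate 1 was high and replicate 3 lay inside the range of the cold libraries. Without that replicate 1, these 5 genes, Mcm2 and Mcm3 lost their calls, which left 3 of the list called lower. Mki67 was highest in the same library. Without replicate 1 or without replicate 3 at 10 °C, 5 were called lower, and without replicate 3 at 22 °C 14 were. Mcm10, a replication initiation factor, went the other way (101, 68.04 and 104 CPM against 52.6, 66.5 and 60.9 CPM, log2 fold change 0.60, SE 0.16, adjusted p = 0.123). Its call was lost without replicate 1 or 3 at 10 °C or replicate 1 at 22 °C. Its levels were far above the 3.56 to 13.4 CPM of Mcm5 and Mcm6, and what set them apart was not tested. Mki67, a marker of dividing cells, spanned 6.11 to 8.96 CPM at 10 °C and 6.65 to 18.6 CPM at 22 °C and did not pass.

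Promoter stretches are shown for Mcm5 and Mcm6, called members of the list with an E2F motif upstream of the start. TTTCCCGC or TTTGGCGC, on either strand, was held by 514 of the 32851 promoters (1.56%) and by 5 of the 22 tested members of the cell cycle list with a promoter at hand. Of 10 called members with a promoter at hand, 3 held the motif, namely Mcm3, Mcm5 and Mcm6. Upstream of the start, Mcm2, Mcm3, Mcm10, Cdk1, Rrm2, Cdc20 and Aurka had no match, and no promoter of Foxm1 was at hand. The motif is in capitals, once on the opposite strand in Mcm5 and at 2 places in Mcm6.
Mcm5, chr8:75109340-75109387, plus strand: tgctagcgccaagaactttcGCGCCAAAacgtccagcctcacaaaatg
Mcm6, chr1:128359725-128359835, minus strand: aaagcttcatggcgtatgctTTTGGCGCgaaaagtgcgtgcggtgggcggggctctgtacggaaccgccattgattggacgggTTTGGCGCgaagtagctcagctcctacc

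Hepatocyte zonation was read from lists of genes of the central vein side and the portal side. Of 20 pericentral genes, 2 were called lower (10%, against 2.54% of all genes) and none higher, and 10 (50%, against 10.6%) were lower at an unadjusted p of at most 0.05 with none higher (median -0.29). Of 20 periportal genes none was called, with 2 higher and 2 lower at that p (10% each, against 8% and 10.6% of all genes, median -0.0046). The Wnt pathway receptor Lgr5, confined to cells around the central vein, was at 7.55, 9.87 and 7.59 CPM at 10 °C and 15.2, 16.1 and 11.8 CPM at 22 °C (log2 fold change -0.79, SE 0.15, adjusted p = 0.0941). Tbx3, a transcription factor of the same cells, was at 24.1, 28.97 and 21.6 CPM and 66.3, 46.2 and 34.96 CPM (log2 fold change -0.98, SE 0.21, adjusted p = 0.0959). Neither gene overlapped between groups, and both kept their calls whichever single library was left out. Glul, glutamine synthetase of the innermost pericentral hepatocytes, did not pass (log2 fold change -0.12, SE 0.088).

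Many of the genes of smallest p lay outside these pathways. Clec2h, a C-type lectin of the family whose members bind natural killer cell receptors, was at 18.8, 16.5 and 25.3 CPM at 10 °C and 6.93, 7.23 and 6.47 CPM at 22 °C, with a log2 fold change of 1.56 (SE 0.16) and the lowest adjusted p of all genes, 0.0572. No control library came near a cold one. The serine protease Prss8 followed the same pattern, at 6.26, 6.94 and 6.48 CPM against 2.71, 3.61 and 3.32 CPM (log2 fold change 1.03, SE 0.16, adjusted p = 0.0941). Hsd17b6, an enzyme of androgen and retinol metabolism, was at 102, 114 and 124 CPM against 69.5, 61.1 and 80.8 CPM (log2 fold change 0.68, SE 0.11, adjusted p = 0.0941). Abca8a, a lipid transporter, was at 217, 192 and 246 CPM against 141, 143 and 146 CPM (log2 fold change 0.61, SE 0.10, adjusted p = 0.0941). The rest of the 12 higher genes of smallest p, Wsb1, Bdh2, Hectd2, Insig1, Neurl3, Rdh16f2, Hes1 and Klhl13, had log2 fold changes of 0.61 to 0.82, all without overlap. Without replicate 3 at 10 °C Abca8a, Insig1 and Klhl13 were no longer called, nor were Wsb1, Hectd2, Insig1 and Klhl13 without replicate 1 at 22 °C, Hectd2 without replicate 1 at 10 °C, and Bdh2 without replicate 2 of either group.

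On the lower side, Susd4, a complement regulator, had the smallest p, with 36.3, 35.7 and 34.9 CPM at 10 °C and 59.95, 50.3 and 53.9 CPM at 22 °C (log2 fold change -0.62, SE 0.082, adjusted p = 0.0941). Cmip, an adaptor protein, was at 19.5, 18.6 and 17.9 CPM and 36.03, 34.1 and 26.8 CPM (log2 fold change -0.79, SE 0.12, adjusted p = 0.0941). Atn1, a transcriptional corepressor, was at 4.54, 2.98 and 3.05 CPM and 11.2, 9.997 and 6.41 CPM (log2 fold change -1.39, SE 0.24, adjusted p = 0.0941). Every cold library lay below every control for these 3 genes, and Susd4 lost its call without replicate 1 at 22 °C. The other 9 lower genes of smallest p were Snhg11, Asns, Ppargc1b, Ankrd52, Trp53inp2, Map3k13, Zmiz1, Rreb1 and Pcgf2, with log2 fold changes from -1.16 to -0.74. By size, the 6 lower genes of largest fold without overlap were Hapln1, Lars2, Tro, Ckap2l, Ppard and Pdk4, and the 6 higher ones Dbp, Clec2h, Angptl8, S100a9, Prss8 and Rpl36a, a ribosomal protein gene with near-identical copies. Lars2, the mitochondrial leucyl-tRNA synthetase, was at 2652, 1882 and 2570.3 CPM at 10 °C and 2831, 8109.6 and 13689.9 CPM at 22 °C (log2 fold change -1.79, SE 0.45, adjusted p = 0.119). Its level in replicate 1 at 22 °C was just above the cold libraries, while replicates 2 and 3 were several times higher. In the brown fat libraries at 22 °C Lars2 ran from 669 to 17588 CPM, and in the liver libraries of the 34 °C experiment from 247 to 1053 CPM. What made its reads vary so widely, within a group and between experiments, was not tested. S100a9, a neutrophil and macrophage calcium-binding protein, was at 1.903, 1.15 and 1.81 CPM and 0.603, 0.783 and 0.475 CPM (log2 fold change 1.38, SE 0.32, adjusted p = 0.115).

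Among abundant plasma proteins, Alb and Apoa1 had higher levels in every cold library than in any control, by less than the fold limit, while C3, the central complement protein, overlapped (9281, 9230.2 and 9659 CPM against 9829, 8644 and 8323 CPM). Alb had a log2 fold change of 0.45 (SE 0.10, adjusted p = 0.114), and Apoa1, the main protein of high-density lipoprotein, of 0.39 (SE 0.11, adjusted p = 0.129). Summed over 15 secreted and identity genes of hepatocytes, the level was 157268 to 160807 CPM at 10 °C and 127590 to 136139 CPM at 22 °C, with exact p = 0.1 in a two-sided permutation test of 3 against 3 libraries, the smallest it can give. Alb made up 69.3% of the gap between the group means, and of the 15 genes 11 had a positive and 4 a negative log2 fold change (median 0.12), none called. Of 25 coagulation genes none was called, but 24 had a positive log2 fold change (96%, against 52.4% of all genes) and 12 an unadjusted p of at most 0.05, all higher (48%, against 8%; median 0.23). F2, prothrombin, was at 1969, 1809 and 1971 CPM at 10 °C and 1471, 1594 and 1601 CPM at 22 °C (log2 fold change 0.30, SE 0.084), and Serpinc1, antithrombin, at 2383, 2444 and 2415 CPM and 1909, 2041 and 2133 CPM (log2 fold change 0.25, SE 0.082). Both had non-overlapping groups a small step apart. Interferon-stimulated genes had 40 of 45 members with a positive log2 fold change (88.9%, against 52.4%) and 1 called higher (2.22%, against 0.74%; median 0.23). That gene, the chemokine Cxcl10, was at 2.21, 1.26 and 3.15 CPM and 1.08, 1.02 and 1.54 CPM, with overlap, and lost its call in 4 of the 6 fits that left out 1 library. Class II antigen presentation had 1 of 9 called higher (11.1%, against 0.74%). That was H2-DMa, whose libraries overlapped and whose call was kept only without replicate 3 at 22 °C among those 6 fits. These immune genes were measured in libraries where Kupffer and endothelial markers were lowest in replicate 1 at 22 °C, whose part in the result was not tested.

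**Figure D3:**
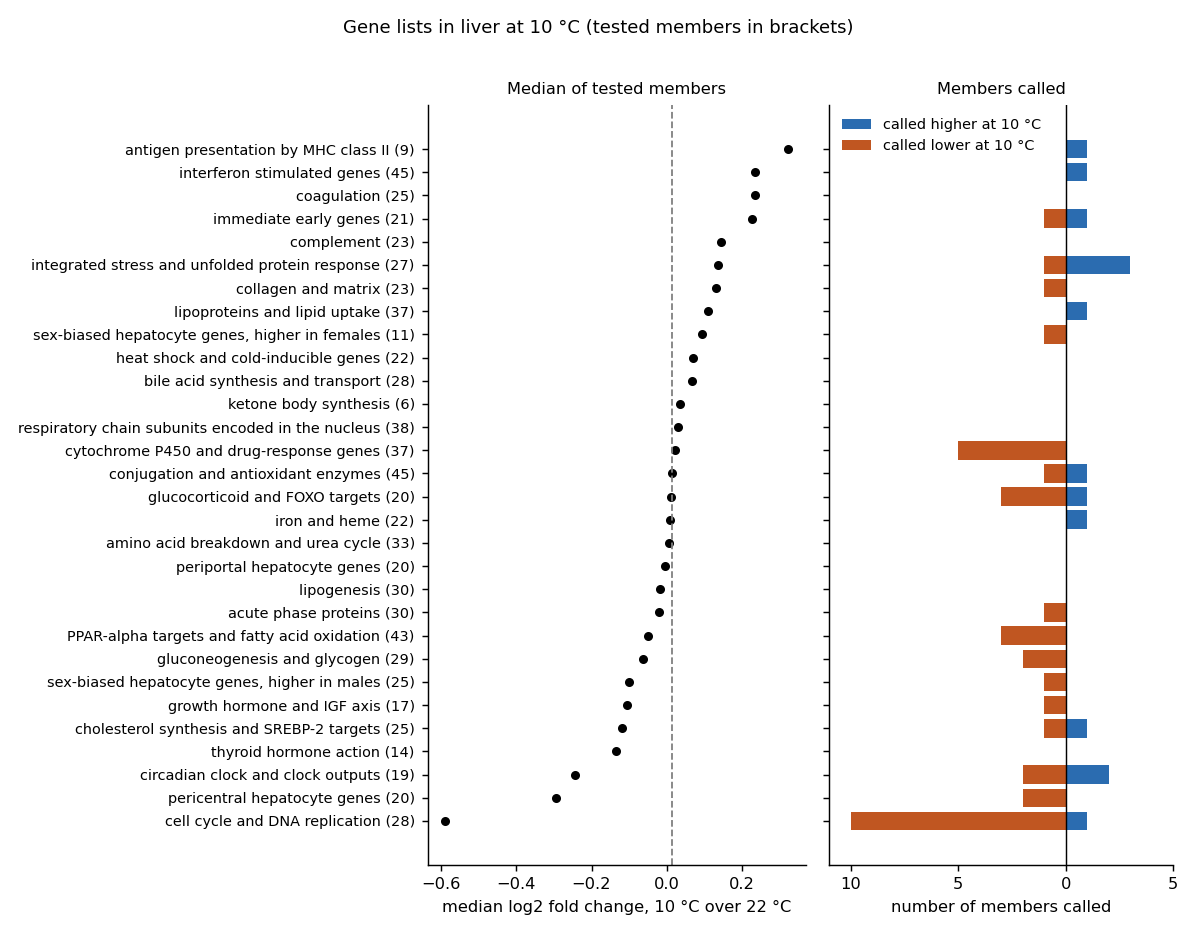
Gene lists in liver at 10 °C against 22 °C, with tested members in brackets. Left: median log2 fold change of the members (dashed line: median of all 12026 genes). Right: members called higher (blue) and lower (orange). The cell cycle list is lowest, with 10 called lower, and the stress list has 3 called higher.

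Called genes differed from the rest in transcript length, which moved with the libraries. The 306 genes called lower had a median summed exon length of 5199 bases and the 89 called higher one of 2785 bases, against 4557 bases over all genes tested. Their median GC content was 52.5% and 50% against 49.6%. In the 2404 genes with the longest exons the median log2 fold change was -0.09, with 4 called higher and 82 lower, and in the 2405 with the shortest it was 0.11, with 40 higher and 46 lower. Replicates 1 and 2 at 22 °C were above the mean for long genes (median deviations 0.077 and 0.072 on the log2 scale), and replicate 3 at 22 °C was with the cold libraries (-0.018 against -0.028 to -0.068). Among the 306 lower genes, the highest control was replicate 1 in 216 and the lowest control was replicate 3 in 209. A fit with an offset for exon length and GC content, added after the data were seen, called 358 genes (82 higher, 276 lower), of which 310 were among the 395. Hspa5, Creld2, Manf, Dbp, Npas2, Bcl6, Pdk4, Ppard, Mcm5, Mcm6, Lgr5 and Tbx3 kept their calls in that fit, and Foxo1, Mcm2 and Hsd17b6 fell below the fold limit.

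**Figure D4:**
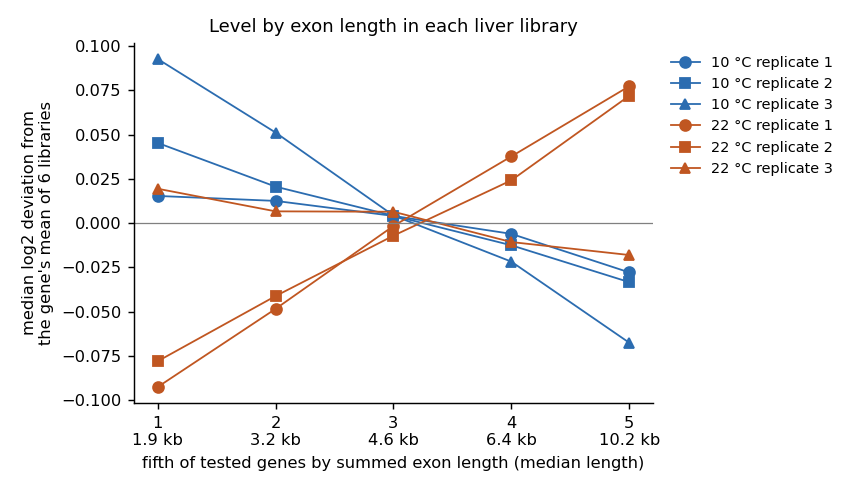
Median log2 deviation from each gene's mean over the 6 libraries (y axis) for 5 equal bins of genes by summed exon length (x axis, with the median length), 1 line per library (orange: 22 °C, blue: 10 °C). Replicates 1 and 2 at 22 °C rise to 0.077 and 0.072 in the bin of longest genes, and replicate 3 at 22 °C runs with the 3 cold libraries.

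The next question was how these changes compare with those of liver at 34 °C, an experiment with its own 22 °C controls. At 34 °C, 358 of 10877 genes (3.29%) were called, 183 higher and 175 lower. The test of the difference between the 10 °C and 34 °C changes called 593 of 11504 genes (5.15%), 4 of them also at an adjusted p under 0.05. A total of 45 genes were called in both experiments, 11.4% of the 10 °C calls and 12.6% of the 34 °C calls, of which 33 had the same direction and 12 opposite directions. Clec2h, Prss8, Abca8a and Wsb1 were higher at both temperatures, with log2 fold changes at 34 °C of 0.64, 1.33, 0.63 and 1.03. Among these, the difference between the 10 °C and 34 °C changes of Clec2h passed the unadjusted limits and not the adjusted one (difference 0.90, SE 0.36, unadjusted p = 0.0263, adjusted p = 0.3). Slc22a7, an organic anion transporter, was lower at both (-0.97 at 10 °C and -1.98 at 34 °C, difference 0.99, SE 0.25, adjusted p = 0.163). Bcl6 was lower at both as well (-0.91 at 34 °C), and so was the kinase Map3k13 (-1.01 and -1.19).

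Creld2, Derl3 and Nucb2 were among the 12 genes of opposite direction. Creld2 was lower at 34 °C, with a log2 fold change of -0.66 against 1.102 at 10 °C (difference 1.75, SE 0.48, unadjusted p = 0.0029, adjusted p = 0.186). Derl3 had -2.44 at 34 °C against 1.74 at 10 °C (difference 4.17, SE 0.98, unadjusted p = 0.000979, adjusted p = 0.159). Nucb2, a calcium-binding protein of the secretory pathway and precursor of nesfatin, chosen after its values were seen, had -1.71 against 1.11 (difference 2.81, SE 0.46, unadjusted p = 3.85e-05, adjusted p = 0.0633). Hspa5 was not called at 34 °C, with a log2 fold change of -0.00081 (difference from the 10 °C change 0.73, SE 0.30, unadjusted p = 0.0298, adjusted p = 0.317). Of these 4 differences none passed the adjusted limit. Hectd2, a ubiquitin ligase, had log2 fold changes of 0.62 at 10 °C and -0.75 at 34 °C, both called, and its difference came near that limit (adjusted p = 0.0516). The proto-oncogene Myc was lower at 10 °C (-1.29) and higher at 34 °C (2.35), as was Zbtb16, a glucocorticoid-responsive factor (-0.62 and 1.51). In both, 1 warm library carried the value at 34 °C: Myc was at 4.07, 5.997 and 57.5 CPM in the warm libraries and 2.87, 7.72 and 2.73 CPM in their controls, and Zbtb16 at 6.59, 8.11 and 41.4 CPM and 6.62, 6.102 and 6.898 CPM. Without replicate 3 at 22 °C and replicate 2 at 10 °C together, Myc was no longer called at 10 °C, and Zbtb16 lost its call there without replicate 1 or 3 at 10 °C or replicate 2 at 22 °C. Without replicate 3 at 10 °C Nucb2 lost its call, as did Hectd2 without replicate 1 of either group. Dio1, which activates thyroid hormone and is induced by it, did not reach the fold limit at 10 °C, with 174, 205 and 201 CPM against 299, 244 and 276 CPM (log2 fold change -0.50, SE 0.10). At 34 °C it fell by 3.82 on the log2 scale, and the difference of 3.31 (SE 0.46) had an adjusted p of 0.0279. Of 25 hepatocyte genes with higher levels in males, 11 were called lower at 34 °C, against 175 of all 10877 genes tested there. At 10 °C 1 was called lower, Susd4 (4%, against 2.54% of all genes). At that temperature 4 higher and 6 lower had an unadjusted p of at most 0.05 (16% and 24%, against 8% and 10.6%). The contrast between the temperatures was not tested for this list.

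**Figure D5:**
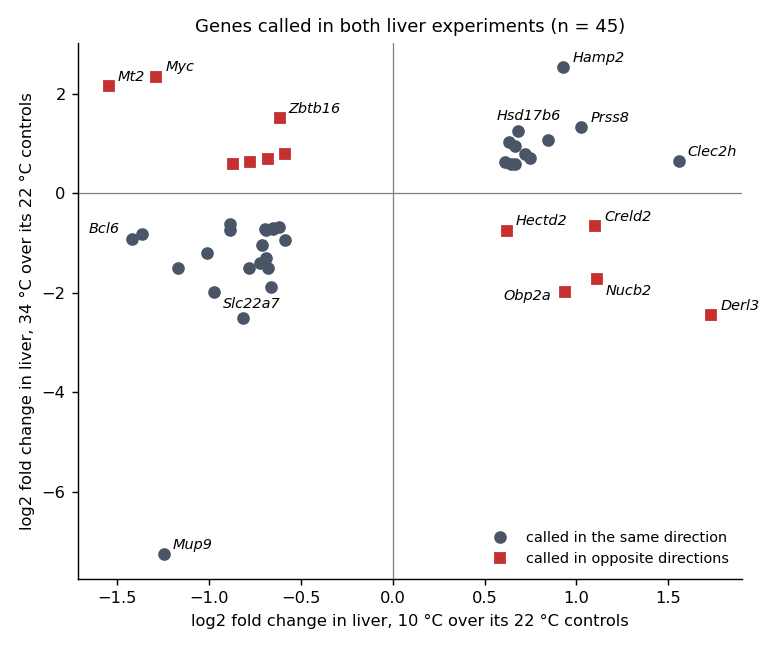
Log2 fold changes of the 45 genes called both in liver at 10 °C (x axis) and in liver at 34 °C (y axis), each against its own 22 °C controls. Grey circles: 33 genes with the same direction. Red squares: 12 genes with opposite directions, among them Derl3, Nucb2 and Creld2 (positive in the cold, negative in the warm) and Myc, Mt2 and Zbtb16 (the reverse). Mt2 had 5 to 49 reads in the 10 °C experiment, with overlapping groups, and lost its call there in 4 of the 6 fits that left out 1 library.

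Brown fat of the same experiment, a heat-producing tissue, served for comparison. The test of the difference between the liver and the brown fat change called 1863 of 13069 genes (14.3%). Of 21 clock genes tested for that difference, 13 were called, 10 of them also at an adjusted p under 0.05. Dbp had a log2 fold change of -2.22 in brown fat against 2.11 in liver (difference 4.33, SE 0.70, adjusted p = 0.00182), and Nr1d2 -1.13 against 0.70 (difference 1.82, SE 0.27, adjusted p = 0.00105). Npas2 and Arntl were called higher in cold brown fat (1.73 and 1.21), with differences of -2.67 (SE 0.54, adjusted p = 0.00768) and -1.66 (SE 0.35, adjusted p = 0.0104). Usp2 was lower in both tissues (-0.98 in liver, -0.86 in brown fat, difference -0.13, SE 0.37, adjusted p = 0.875), and the difference of Nr1d1, 1.58 (SE 0.58), had an adjusted p of 0.113. Differences for genes of hepatocytes were not read, because brown fat libraries at 22 °C carried 431 to 1501 Alb reads and those at 10 °C 0 to 7. Of the 123 tested genes of the study's thermogenic list, 3 were called lower in liver, 2.44% against 2.54% of all genes, and none higher (median -0.036): Adrb3, the beta-3 adrenergic receptor (7.92, 8.03 and 5.97 CPM against 12.2, 9.88 and 12.4 CPM, log2 fold change -0.66, SE 0.15), Clic5 and Kdm6b. Adrb3 and Kdm6b were no longer called without replicate 3 at 10 °C, and Adrb3 is also 1 of the 15 brown adipocyte markers given above. Of 237 tested genes of the study's fatty acid list, 5 were called higher and 5 lower (2.11% each, against 0.74% and 2.54%, median 0.0069).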

How the data were processed

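RNA of liver was sequenced from libraries of 2 pooled mice, prepared with the NEBNext kit for the cold experiment and a stranded TruSeq kit for the 34 °C experiment. The authors aligned reads to mm10 with STAR and deposited raw counts per gene made with HTSeq (STAR 2.5.3a and HTSeq 0.6p1 per the labels, while the study's methods name later versions). Whether counting used strand is not given in the sources used here, so overlapping genes cannot be told apart. The labels of all samples carry a 34 °C treatment note, and groups were taken from the treatment label. The 34 °C libraries were assigned to groups by their column names only. Of 21647 genes, 20193 were joined to the 34 °C table by symbol.

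Counts were tested with edgeR 4.0.16 in R 4.3.3 by the quasi-likelihood test with TMM scaling on genes of average log2 CPM above 0, checked on simulated data. Differences between experiments were interaction terms over all libraries of both. Alternatives were edgeR's exact test, DESeq2 1.42.0, other scalings and filters, a robust fit, a replicate block, each library left out and, added after seeing the data, an offset for exon length and GC content (mgcv 1.9.3) and the omission of both libraries with brown fat RNA. Genes were named by rule: in each direction the 12 of smallest p and the 6 of largest fold without overlap and up to 8 also called at 34 °C, in each list up to 6 called and the first 2, the 10 of highest CPM, and genes that 1 library decides. Not every gene under the rule is described, and exceptions are marked. Some results are not reported here. The members and lists were chosen with earlier results of these data known. Promoters are from RefSeq, GRCm38.p6.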

Additional observations from a re-analysis of the deposited data

Results flagged for a closer look

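Results are listed here where the change in liver at 10 °C differed from that of another tissue or temperature by a test of the difference itself, at an adjusted p under 0.05. Only genes named by the rule are listed, and for brown fat only clock genes. In all, 991 genes passed that limit and the fold limit for the difference from brown fat. For the difference from 34 °C, 4 genes passed: Dio1, Mup2, Mup13 and Ces2c. The change of Dbp in liver exceeded that in brown fat by 4.33 on the log2 scale, that of Nr1d2 by 1.82. For the activators Npas2 and Arntl the difference was -2.67 and -1.66. The change of Dio1 at 10 °C differed from that at 34 °C by 3.31. The groups of 3 libraries are too small for a test of single outlying samples.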

How the results depend on the processing

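Of the 395 genes called between 10 °C and 22 °C, none passed an adjusted p under 0.05 with edgeR's quasi-likelihood test (0 higher, 0 lower), while the exact test gave 201 and DESeq2 200 genes past that limit and the fold. Leaving out 1 library gave 277 to 629 called, 51 to 200 higher and 226 to 458 lower, with the highest total without replicate 3 at 22 °C. Leaving out both libraries with brown fat RNA, a setting added after seeing the data, gave 690 (194 higher, 496 lower). The higher count was 55 with library size scaling and 134 with no filter beyond 1 count. For the difference from the 34 °C change, 4 genes passed the adjusted p (4 higher, 0 lower), and for the difference from brown fat 991 (412 higher, 579 lower). Higher calls at 34 °C were 144 to 278 when 1 library was left out. The mean summed hepatocyte markers at 10 °C were 155200 CPM by library size. The log2 fold changes of Acta1, Adipoq, Cidea and Ucp1, none of them called, ran from -4.29 to 1.65, -4.18 to 1.54, -3.76 to 2.10 and -4.63 to 2.06 when 1 library was left out, and were positive without replicate 3 at 22 °C only. None of the other named genes reversed under any setting run. Deviations of same-numbered libraries from their group means had correlations of 0.037, -0.34 and 0.00024. With 3 libraries per group such deviations are tied to one another, so these values cannot settle whether the numbers pair the libraries. A fit with the replicate number as a block called 360 genes (74 higher, 286 lower). For the difference from brown fat it called 1905 (902 higher, 1003 lower). With 3 pools per group, the median standard error of a log2 fold change was 0.11. The cause of these shifts was not tested.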

Other observations

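Of 37 tested cytochrome P450 and drug-response genes, 5 were called lower (13.5%, against 2.54% of all genes) and none higher (median 0.023). Cyp39a1, an oxysterol hydroxylase, was at 15.2, 23.5 and 14.5 CPM at 10 °C and 31.2, 25.8 and 28.4 CPM at 22 °C, without overlap (log2 fold change -0.68, SE 0.17, adjusted p = 0.121). The other 4, Cyp3a59, Cyp2c38, Cyp17a1 and Cyp2c39, lost their calls without replicate 1 at 10 °C or without replicate 1 at 22 °C, and the last 3 also without replicate 3 of either group. Reads of the Cyp2c and Cyp3a genes may be split among close copies. Of 45 tested conjugation and antioxidant enzymes, 1 was called higher and 1 lower (2.22% each, against 0.74% and 2.54% of all genes). They were the sulfotransferases Sult1c2 (0.75, SE 0.25) and Sult5a1 (-0.68, SE 0.20) on the log2 scale, each with overlapping libraries. Hamp2, a hepcidin-like gene, was at 2.52, 3.499 and 1.71 CPM and 1.69, 1.204 and 1.13 CPM (log2 fold change 0.93, SE 0.31, adjusted p = 0.175). Col15a1, a basement membrane collagen, was lower without overlap in every fit that left out 1 library (11.7, 10.7 and 9.395 CPM against 20.8, 20.2 and 13.7 CPM, log2 fold change -0.78, SE 0.16, adjusted p = 0.0947). Klf10, a glucose-responsive factor, was higher (29.1, 13.2 and 18.004 CPM against 9.28, 11.9 and 11.3 CPM, log2 fold change 0.88, SE 0.25, adjusted p = 0.137). Cyp39a1 lost its call without replicate 3 at 10 °C, Sult1c2 without replicate 2 at 10 °C, Sult5a1 without replicate 1 at 22 °C, Hamp2 without replicate 2 at 10 °C or replicate 3 at 22 °C, and Klf10 without replicate 1 at 10 °C.

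A pair of regulators of transcription, chosen after their values were seen, were lower at 10 °C and shared an order of the controls. Kmt2d, a histone methyltransferase of enhancers, was at 59.8, 51.5 and 42.7 CPM at 10 °C and 132, 97.8 and 70.8 CPM at 22 °C. Prox1, a transcription factor of hepatocytes and lymphatic endothelium, was at 92.9, 115 and 95.1 CPM and 243, 188 and 141 CPM. For both genes replicate 1 was the highest and replicate 3 the lowest control, and their log2 fold changes were -0.97 and -0.92. That order was not particular to them. Among the 306 genes called lower, the highest control was replicate 1 in 216 and the lowest was replicate 3 in 209. Mup9, named outside the rule, is 1 of a cluster of near-identical major urinary protein genes whose reads may be split among copies. It was at 64.8, 132 and 63.9 CPM at 10 °C and 234, 227 and 158 CPM at 22 °C.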
